A study of Homo sapiens with 12 samples.

Results

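ABC transporter genes were followed in DU145 cells with and without knockdown of the σ1 receptor (σ1R). The members are the protein-coding genes whose symbol begins with ABC, followed by a letter from A to G and a number, which gave 45 members among the 28747 gene identifiers counted. The established line DU145 comes from a human prostate carcinoma and does not need androgen to grow. RNA was sequenced from 4 groups of 3 independent replicates, namely control cells (shCtrl) and cells with stable hairpin knockdown of σ1R (shSigma), each grown as adherent cultures or as tumor spheres. Tumor spheres are suspended cell clusters grown without serum, and the study used them to enrich for stem-like cells. Knockdown cells were made by lentiviral infection with hairpins and selection with puromycin. The study's methods name a single clone, its figures show the hairpins sh1_σ1R and sh2_σ1R, and the labels do not say which was sequenced. Effects of the hairpin other than on σ1R therefore cannot be told apart from those of the knockdown. The medium and the growth form change together between the cultures, and their effects cannot be told apart.

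ABC transporters use ATP to move substrates across membranes, and most pair membrane-spanning domains with ATP-binding domains. ABCB1, ABCC1 and ABCG2 are the best-known drug efflux pumps of tumor cells, and the ABCC family also exports organic anions and glutathione conjugates. ABCA1 and ABCG1 pass cholesterol to lipoproteins, other members serve mitochondria or peroxisomes, and ABCE1 and the ABCF proteins have no membrane domain and act in translation.

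The 12 libraries held 16472722 to 26957777 counts. Levels below are CPM (counts scaled to a library of 1000000) unless stated, and errors are SD over n = 3 libraries for levels and SE for log2 fold changes. The epithelial markers KRT8, KRT18, EPCAM and CDH1 were all present, and KLK3 was close to 0 in every library. With knockdown EPCAM fell in adherent cells and tumor spheres (log2 fold changes -2.99 and -3.31), and so did CDH1 (-1.23 and -4.71), while KRT8 (0.76 and -0.21) and KRT18 (0.58 and -0.44) rose in adherent cells and fell in tumor spheres. Among markers of other cell types, COL1A1 reached 24.9 CPM and fell with knockdown in tumor spheres (-0.92), CD68 reached 1.19 CPM and rose with knockdown in adherent cells (1.47), and PTPRC, CD3E, PECAM1 and TYR stayed below 0.4 CPM. The part of such shifts in the results on ABC transporters was not tested, and in bulk RNA fewer cells of a type and less RNA per cell cannot be told apart. Replicates of a group all differed by more than counting noise.

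Of the 45 members, 33 had enough counts to be tested in at least 1 comparison and 28 in all 5. The 12 others were ABCB1, ABCB4, ABCB5, ABCB11, ABCC6, ABCC12, ABCF1, ABCD2, ABCG5, ABCG8, ABCA6 and ABCA9. ABCB1, the pump known as P-glycoprotein, had at most 4 counts in any library, and its group means lay between 0.0336 and 0.157 CPM. A difference in ABCB1 was therefore not detectable at this depth, where 3 counts correspond to 0.115 to 0.176 CPM. ABCF1 and ABCC6 had 0 counts in all 12 libraries. Of 61 other protein-coding genes within 1000000 bases of ABCF1 on chromosome 6, 47 were also at 0 throughout, and the same held for 7 of 12 around ABCC6 on chromosome 16, against 12.8% of the 19237 protein-coding genes in the table. Why these regions hold zeros was not tested, and neither gene can be read as silent. TAP2 was at 0 in every library, and TAP1 and CFTR, the other family genes with symbols of their own, had no more than a single count in any of them. Why TAP1 and TAP2 held so few counts was not tested either, and they too cannot be read as silent.

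Promoters (250 bases before to 50 after the start, RefSeq, GRCh38.p14) were matched for 35 members. The 4 below belong to members whose values the results turn on, and capitals mark any match to GGGCGG (GC box), CACGTG (E-box), TGACNNNGC (antioxidant response core), GCGTG (xenobiotic response core) or TATAAA on either strand.
ABCC2 promoter, chr10:99782390-99782689, plus strand: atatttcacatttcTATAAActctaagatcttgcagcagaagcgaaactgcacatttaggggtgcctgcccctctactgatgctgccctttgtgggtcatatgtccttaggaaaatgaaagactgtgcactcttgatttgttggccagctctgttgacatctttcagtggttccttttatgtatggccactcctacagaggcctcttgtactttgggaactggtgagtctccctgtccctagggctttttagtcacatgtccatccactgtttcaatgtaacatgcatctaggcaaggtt
ABCC4 promoter, chr13:95301402-95301701, minus strand: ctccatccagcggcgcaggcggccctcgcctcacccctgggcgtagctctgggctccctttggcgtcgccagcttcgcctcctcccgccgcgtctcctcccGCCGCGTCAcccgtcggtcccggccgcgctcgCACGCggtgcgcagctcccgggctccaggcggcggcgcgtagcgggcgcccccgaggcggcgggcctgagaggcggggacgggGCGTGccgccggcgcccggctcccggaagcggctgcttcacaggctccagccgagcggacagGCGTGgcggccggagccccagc
ABCG2 promoter, chr4:88231577-88231876, minus strand: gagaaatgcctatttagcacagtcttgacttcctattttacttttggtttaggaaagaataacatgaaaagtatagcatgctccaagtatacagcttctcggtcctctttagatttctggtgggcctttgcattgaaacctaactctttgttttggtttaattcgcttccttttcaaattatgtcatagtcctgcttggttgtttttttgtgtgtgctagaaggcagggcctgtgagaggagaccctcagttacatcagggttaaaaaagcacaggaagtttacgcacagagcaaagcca
ABCA1 promoter, chr9:104928106-104928405, minus strand: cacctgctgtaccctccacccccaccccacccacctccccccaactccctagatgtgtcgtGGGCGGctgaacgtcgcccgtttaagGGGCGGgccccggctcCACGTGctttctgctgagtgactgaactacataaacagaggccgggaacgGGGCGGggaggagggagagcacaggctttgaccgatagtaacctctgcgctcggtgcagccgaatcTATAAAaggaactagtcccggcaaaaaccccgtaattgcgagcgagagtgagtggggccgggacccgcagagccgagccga
ABCC2 held a single TATAAA match, which begins 236 bases before the start site. ABCC4 held an antioxidant response core on the strand opposite to the gene and 3 xenobiotic response cores. ABCA1 held 3 GC boxes, an E-box and a TATAAA match 31 bases before its start site. The ABCG2 stretch shown held none of these letters. A single start was used per member, and that of ABCG2 lies at the outer end of the annotated gene. Other start sites were not examined, and which starts DU145 cells use was not tested. Over the 35 promoters, 18 held a GC box (against 45.0% of 35116 promoters of the same length), 13 the xenobiotic core (36.5% of all), 7 the antioxidant core (13.3%), 5 TATAAA (11.5%) and 4 the E-box (7.26%). The ratio of observed to expected CpG had a median of 0.782 over the 25 tested members with a promoter, 0.256 over the 10 untested ones and 0.579 over all promoters. ABCC2 at 0.0660 and ABCG2 at 0.247 lay below that last median, and ABCC4 at 0.992 and ABCA1 at 0.782 lay above it.

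Levels between genes were compared as RPKM, which divides CPM by exon length. ABCE1, which splits ribosomes after termination, was the highest member in adherent shCtrl cells at 59.1 ± 4.18 RPKM, and ABCD3 followed at 12.5 ± 0.941 RPKM. ABCD3 and ABCB10 at 12.03 ± 0.985 RPKM did not differ beyond their spread. In shSigma tumor spheres the order had changed. ABCC3 came first at 55.0 ± 3.45 RPKM, and ABCE1 at 38.5 ± 1.89 and ABCC4 at 37.0 ± 1.51 RPKM followed within their spread of each other. ABCC3 and ABCC4 together made up 10.9 ± 0.281% of the summed CPM of all members in adherent shCtrl, 23.3 ± 0.418% in adherent shSigma, 19.9 ± 0.880% in tumor sphere shCtrl and 40.5 ± 0.899% in tumor sphere shSigma cells. The summed level was 1241 ± 69.6, 1308 ± 89.6, 1547 ± 88.0 and 2097 ± 9.76 CPM in the same order. Without ABCC3 and ABCC4 it was 1106 ± 59.3, 1003 ± 71.9, 1239 ± 71.4 and 1249 ± 13.8 CPM, and the tumor sphere groups then differed by less than the replicate spread.

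After knockdown in adherent cells, ABCC2 fell and ABCC3, ABCC4, ABCG2, ABCA1 and ABCA4 rose. A member was called at an adjusted p under 0.05 (edgeR quasi-likelihood test, Benjamini-Hochberg adjustment over all genes tested). Of 30 members tested, 9 rose and 7 fell, beside 22.3% and 27.7% of all genes tested, and 4 passed an absolute log2 fold change of 1 as well, beside 13.7%. In tumor spheres 13 of 31 rose and 8 fell, beside 30.2% and 30.9%, and 10 passed that fold, beside 13.1%. The median log2 fold change of the tested members was 0.32 in adherent cells and 0.00 in tumor spheres. By role, 5 of 8 tested efflux members were called in adherent cells and 6 of 8 in tumor spheres, 6 of 10 and 5 of 10 lipid members, 1 of 2 and 2 of 2 lysosomal, and 2 of 3 and 2 of 3 without a membrane domain.

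**Figure D1:**
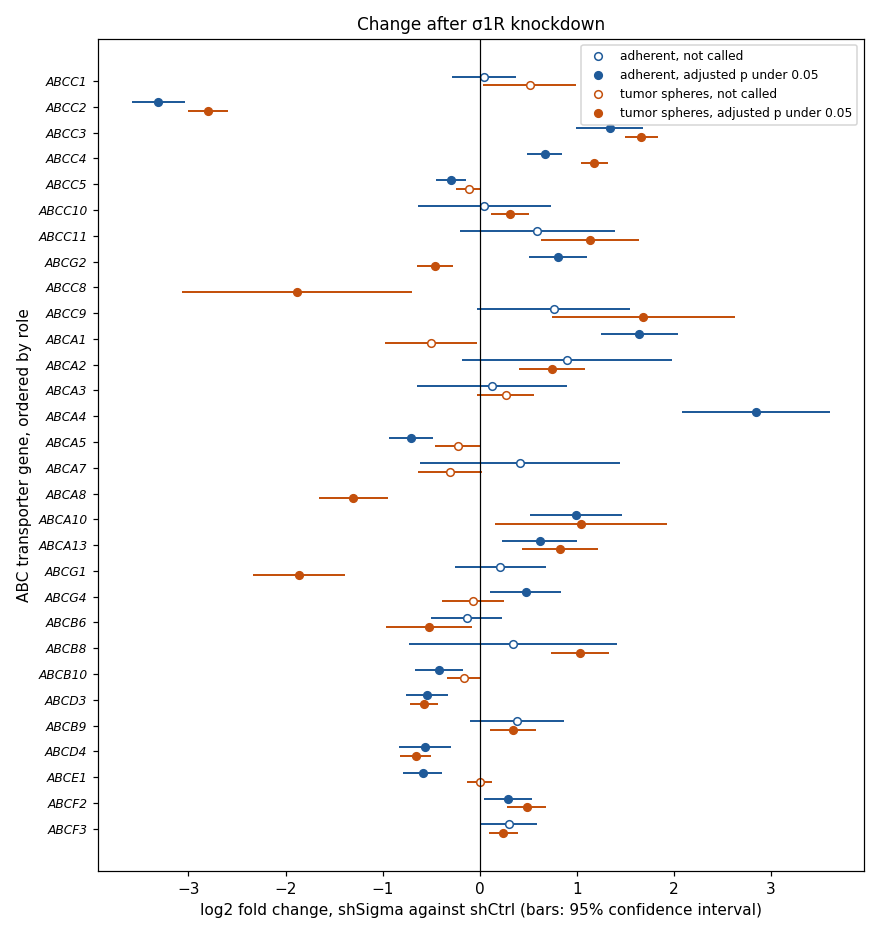
Log2 fold change of shSigma against shCtrl for the tested members shown in adherent cells (blue) and tumor spheres (orange), with 95% confidence intervals and filled points where the adjusted p was under 0.05. ABCC2 is the lowest in both cultures, at -3.31 and -2.80, and ABCA1, ABCG2 and ABCG1 differ between cultures.

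ABCC2 (chr10:99782640-99852594, plus strand) exports conjugated organic anions such as bilirubin glucuronides. It stood at 58.6, 62.1 and 56.9 CPM in adherent shCtrl and 6.95, 5.58 and 6.13 CPM in adherent shSigma libraries. In tumor spheres it stood at 89.4, 79.1 and 76.8 CPM in shCtrl and 10.6, 12.2 and 12.5 CPM in shSigma libraries. The highest shSigma library lay below the lowest shCtrl library in both cultures. ABCC2 was 9.93-fold lower in adherent cells (log2 fold change -3.31 ± 0.11 SE, adjusted p = 3e-06) and 6.95-fold lower in tumor spheres (-2.80 ± 0.09, adjusted p = 4.3e-10).

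ABCC3 (chr17:50634777-50692253, plus strand) is a basolateral exporter of organic anions, and ABCC4 (chr13:95019835-95301475, minus strand) exports cyclic nucleotides and prostanoids. ABCC3 stood at 68.5, 84.9 and 93.8 CPM in adherent shCtrl and 230.5, 231 and 188 CPM in adherent shSigma. The tumor sphere levels were 183, 159.6 and 157 CPM in shCtrl and 496, 562 and 529 CPM in shSigma. Both cultures separated without overlap, and the rise was 2.53-fold in adherent cells (1.34 ± 0.14, adjusted p = 0.00032) and 3.17-fold in tumor spheres (1.66 ± 0.07, adjusted p = 4.2e-09). ABCC4 stood at 55.5, 53.4 and 50.8 CPM in adherent shCtrl and 85.6, 84.9 and 95.6 CPM in adherent shSigma. Tumor spheres held 149, 143 and 131 CPM in shCtrl and 328, 305 and 327 CPM in shSigma. ABCC4 rose 1.59-fold in adherent cells (0.67 ± 0.07, adjusted p = 0.00025) and 2.27-fold in tumor spheres (1.18 ± 0.06, adjusted p = 1.5e-08), again without overlap.

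ABCG2 (chr4:88090150-88231628, minus strand), the breast cancer resistance protein and a drug pump used to mark stem-like side populations, went in opposite directions. It stood at 6.8, 5.63 and 6.43 CPM in adherent shCtrl and 10.9, 10.7 and 13 CPM in adherent shSigma. Its levels in tumor spheres were 42.5, 37.5 and 38.7 CPM in shCtrl and 28.3, 27 and 31.2 CPM in shSigma. Knockdown libraries were all higher in adherent cells and all lower in tumor spheres. The adherent change was 0.81 ± 0.12 (adjusted p = 0.0013), and that of tumor spheres was -0.46 ± 0.08 (adjusted p = 0.00038).

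**Figure D2:**
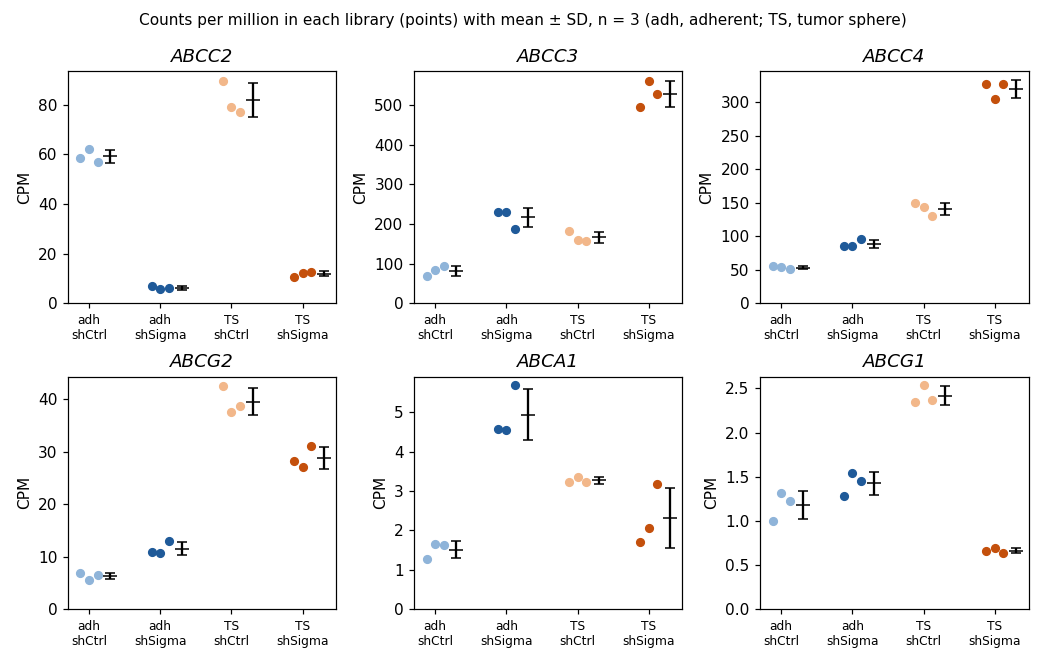
CPM of ABCC2, ABCC3, ABCC4, ABCG2, ABCA1 and ABCG1 in each of the 12 libraries (points) with the mean and SD of each group (bars, n = 3), on axes that start at 0. ABCC2 is low in both shSigma groups, ABCC3 and ABCC4 are highest in shSigma tumor spheres, and ABCG2 is highest in shCtrl tumor spheres at 39.5 CPM.

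The other efflux members had smaller changes or low levels. ABCC1, the multidrug resistance protein that gave the family its name, stood at 3.07, 3.55 and 3.16 CPM in adherent shCtrl and 3.38, 3.48 and 3.67 CPM in adherent shSigma. As tumor spheres, shCtrl gave 3.1, 2.71 and 1.76 CPM and shSigma 3.13, 4.24 and 3.39 CPM. The adherent groups overlapped and the tumor sphere groups did not, and it was not called in either, with 0.04 ± 0.14 (adjusted p = 0.81) and 0.51 ± 0.21 (adjusted p = 0.055). ABCC5, an exporter of nucleotide analogs, fell by 0.30 in adherent cells (adjusted p = 0.0052) and stood at -0.11 in tumor spheres (adjusted p = 0.092). ABCC10, another drug exporter, stood at 0.05 (adjusted p = 0.90) and rose by 0.31 in tumor spheres (adjusted p = 0.0068). ABCC11, which exports lipophilic anions, stood at 0.614, 1.18 and 1.03 CPM in adherent shCtrl and 1, 2 and 1.45 CPM in adherent shSigma. For tumor spheres the values were 1.35, 1.05 and 1.16 CPM in shCtrl and 2.02, 2.76 and 3.07 CPM in shSigma. Its tumor sphere groups did not overlap, and it rose there (1.13 ± 0.23, adjusted p = 0.001) and was not called in adherent cells (0.59 ± 0.34, adjusted p = 0.18). ABCC11 shares 289 exon bases with the opposite-strand gene LONP2, which stood at 99.5 CPM, and the use of strand in counting is not given in the sources used here. ABCC8 and ABCC9, the sulfonylurea receptors that regulate potassium channels, were low. ABCC8 stood at 0.269, 0.381 and 0.395 CPM in adherent shCtrl and 0.429, 0.307 and 0.241 CPM in adherent shSigma. In tumor spheres it stood at 1.7, 0.552 and 1.81 CPM in shCtrl and 0.353, 0.583 and 0.159 CPM in shSigma, with overlap between the tumor sphere groups, and its change there was -1.88 ± 0.53 (adjusted p = 0.011), or -2.78 with the GC slope of each library as a covariate. ABCC9 rose by 1.69 ± 0.43 in tumor spheres (adjusted p = 0.0048) at group means of at most 0.838 CPM.

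Among lipid transporters, ABCA1 and ABCG1 changed in different cultures. ABCA1 (chr9:104781006-104928155, minus strand), which loads cholesterol onto apolipoprotein A-I, stood at 1.27, 1.65 and 1.62 CPM in adherent shCtrl and 4.57, 4.56 and 5.69 CPM in adherent shSigma. The tumor sphere levels were 3.22, 3.37 and 3.23 CPM in shCtrl and 1.71, 2.07 and 3.18 CPM in shSigma. All adherent shSigma libraries lay above all shCtrl libraries, and all tumor sphere shSigma libraries lay below. The change was 1.64 ± 0.16 in adherent cells (adjusted p = 0.00018), and -0.50 ± 0.21 in tumor spheres did not pass (adjusted p = 0.059). ABCG1 (chr21:42199689-42297244, plus strand), which passes cholesterol to high-density lipoprotein, stood at 0.998, 1.31 and 1.22 CPM in adherent shCtrl and 1.29, 1.54 and 1.45 CPM in adherent shSigma. Tumor spheres held 2.34, 2.54 and 2.37 CPM in shCtrl and 0.655, 0.689 and 0.636 CPM in shSigma. The adherent groups overlapped (0.21 ± 0.20, adjusted p = 0.42), and in tumor spheres ABCG1 fell 3.64-fold (-1.87 ± 0.21, adjusted p = 1.3e-05).

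ABCA4 is a retinal transporter of retinoid lipids. It stood at 0.269, 0.211 and 0.118 CPM in adherent shCtrl and 1.29, 1.69 and 1.64 CPM in adherent shSigma. Its levels in tumor spheres were 0.234, 0.221 and 0.353 CPM in shCtrl and 0.101, 0.159 and 0.159 CPM in shSigma. The adherent groups did not overlap, with a rise of 2.84 ± 0.32 (adjusted p = 0.0003), and ABCA4 was too low to be tested in tumor spheres. ABCA8 stood at 0.192, 0.254 and 0.0395 CPM in adherent shCtrl and 0.238, 0.205 and 0.338 CPM in adherent shSigma. As tumor spheres, shCtrl gave 8.84, 6.9 and 8.77 CPM and shSigma 3.38, 2.76 and 3.81 CPM. Its tumor sphere groups did not overlap, and its change was tested only there, where it fell 2.47-fold (-1.30 ± 0.16, adjusted p = 2.2e-05). ABCA10, its neighbor in a gene cluster on chromosome 17, stood at 1.73, 1.4 and 1.26 CPM in adherent shCtrl and 2.62, 3.38 and 3.14 CPM in adherent shSigma. For tumor spheres the values were 0.527, 0.276 and 0.403 CPM in shCtrl and 0.504, 0.848 and 1.17 CPM in shSigma, with changes of 0.99 ± 0.20 (adjusted p = 0.0046) and 1.04 ± 0.40 (adjusted p = 0.039). The tumor sphere groups of ABCA10 overlapped, and it shares 318 exon bases with ABCA5 on the same strand.

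The remaining lipid members were ABCA2, ABCA3, ABCA5, ABCA7, ABCA12, ABCA13 and ABCG4. ABCA5, a lysosomal protein, fell in adherent cells (-0.71 ± 0.09, adjusted p = 0.0006) and stood at -0.23 ± 0.10 in tumor spheres (adjusted p = 0.067). ABCA13 rose in both (0.62 ± 0.16, adjusted p = 0.015, and 0.83 ± 0.17, adjusted p = 0.0014). ABCG4, a sterol exporter of the brain, rose in adherent cells (0.47 ± 0.15, adjusted p = 0.034) and not in tumor spheres (-0.07 ± 0.14, adjusted p = 0.69). ABCA2 rose in tumor spheres (0.75 ± 0.15, adjusted p = 0.0018), and 0.90 ± 0.44 in adherent cells did not pass (adjusted p = 0.14). ABCA3, the lipid pump of lung surfactant, stood at 0.13 ± 0.31 and 0.27 ± 0.12, and ABCA7 at 0.41 ± 0.42 and -0.31 ± 0.14, without a call by edgeR, though DESeq2 called both in tumor spheres (adjusted p = 0.0384 and 0.0274).

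Among mitochondrial members, ABCB8 rose in tumor spheres. ABCB8, part of a mitochondrial potassium channel, stood at 9.95, 16.6 and 24.7 CPM in adherent shCtrl and 24.9, 29.6 and 12.5 CPM in adherent shSigma. The tumor sphere levels were 26.7, 17.8 and 20.3 CPM in shCtrl and 47.5, 42.5 and 42.7 CPM in shSigma. The tumor sphere groups did not overlap, with a rise of 1.03 ± 0.13 (adjusted p = 7.4e-05), while 0.34 ± 0.43 in adherent cells was not called (adjusted p = 0.55). ABCB10, which supports heme synthesis, fell in adherent cells (-0.42 ± 0.10, adjusted p = 0.011) and stood at -0.17 ± 0.07 in tumor spheres (adjusted p = 0.063). ABCB6, linked to porphyrin transport, stood at -0.14 ± 0.15 in adherent cells and fell in tumor spheres (-0.52 ± 0.20, adjusted p = 0.038), with overlapping libraries. It shares 54.6% of its exon bases with a same-strand protein-coding gene that is not among the identifiers counted.

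ABCD3, a peroxisomal importer of branched-chain acyl-CoA, stood at 103, 95.3 and 88.8 CPM in adherent shCtrl and 66, 65 and 75.7 CPM in adherent shSigma. Tumor spheres held 99.95, 102 and 92.9 CPM in shCtrl and 64.8, 64 and 69.8 CPM in shSigma. It fell without overlap in both cultures, with -0.54 ± 0.09 in adherent cells (adjusted p = 0.0016) and -0.57 ± 0.06 in tumor spheres (adjusted p = 6.7e-06). Of the lysosomal members, ABCD4, which helps vitamin B12 leave lysosomes, fell in both (-0.57 ± 0.11, adjusted p = 0.0039, and -0.66 ± 0.07, adjusted p = 7e-06). ABCB9, a lysosomal peptide transporter, stood at 0.38 ± 0.20 in adherent cells and rose by 0.34 ± 0.10 in tumor spheres (adjusted p = 0.013).

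ABCE1 stood at 397, 367 and 345 CPM in adherent shCtrl and 246, 243 and 282 CPM in adherent shSigma. As tumor spheres, shCtrl gave 229.6, 251 and 238 CPM and shSigma 241, 229 and 252 CPM. It fell in adherent cells (-0.59 ± 0.08, adjusted p = 0.00088), and the tumor sphere groups overlapped at 0.00 ± 0.05. ABCF2, which shares 37.1% of its exon bases with a readthrough gene listed at 0, rose in both (0.29 ± 0.10, adjusted p = 0.045, and 0.49 ± 0.09, adjusted p = 0.00047). ABCF3 rose in tumor spheres (0.24 ± 0.06, adjusted p = 0.0048), and 0.30 ± 0.12 in adherent cells did not pass (adjusted p = 0.07).

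Some calls ended or changed sign when the changes of the genes around the member were subtracted. After subtraction of the median change over the 40 tested genes closest to each member, ABCD3 stood at 0.06 in adherent cells and -0.08 in tumor spheres, ABCD4 at -0.17 in adherent cells (adjusted p = 0.23), ABCC5 at -0.17 in adherent cells (adjusted p = 0.058), ABCB6 at -0.48 in tumor spheres (adjusted p = 0.058), and ABCF2 at -0.50 (adjusted p = 0.0055) and -0.19. These calls ended or, for ABCF2 and for ABCD3 in adherent cells, changed sign. The value of ABCB6 moved little, from -0.52 as reported, where its edgeR call was already near the threshold (adjusted p = 0.038). The tumor sphere rise of ABCB8 became 0.40 (adjusted p = 0.025) and the adherent rise of ABCA4 became 3.52, both still called. Calls of ABCC2, ABCC3, ABCC4 and ABCG2 in both cultures, of ABCA1 in adherent cells and of ABCG1 in tumor spheres held.

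Of the more abundant members, those with GC-rich transcripts varied most between adherent replicates. Among 18 members that reached a mean of 10 CPM, the 6 with a GC content of 58.7 to 64.5% (ABCA2, ABCA3, ABCA7, ABCB8, ABCB9 and ABCC10) had an SD of 0.368 to 0.743 in log2 CPM over adherent shCtrl replicates, against 0.0211 to 0.230 for the 12 others. In tumor sphere shSigma replicates the ranges were 0.0329 to 0.141 and 0.00980 to 0.195. All 6 ran from replicate 1 (lowest) through 2 to 3 in adherent shCtrl. That is the order of those libraries' slopes of log2 count, taken around the group mean, on GC content (-0.168, -0.00177 and 0.169 per 10% GC). The covariate of the fits used slopes around the mean of all libraries compared instead. It therefore also takes in differences between the groups, which cannot be told apart there from the change tested. With the GC slope as a covariate, an alternative chosen after seeing the data, ABCC10, ABCB8 and ABCA3 fell in adherent cells (-0.31, -0.25 and -0.29). The counts of members called became 21 in adherent cells and 18 in tumor spheres. Over all genes tested, calls went from 6886 to 9409 of 13764 in adherent cells and from 8414 to 7477 of 13774 in tumor spheres. Without the 2 adherent libraries of most negative slope (shSigma replicate 3 and shCtrl replicate 1) 19 members were called in adherent cells, beside 8058 of 13874 genes tested. The part of GC content in these members' changes was not tested beyond these fits.

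**Figure D3:**
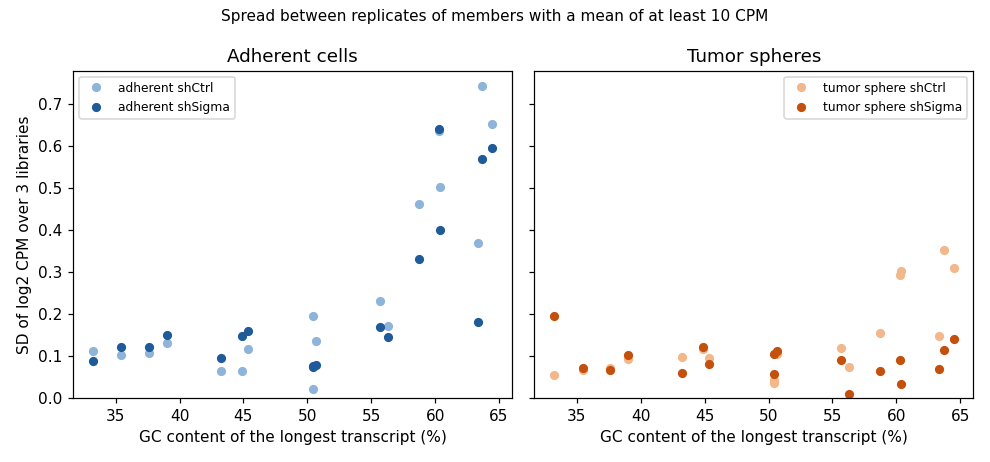
SD of log2 CPM over the 3 libraries of each group (y) against the GC content of the longest transcript (x) for 18 members whose mean reached 10 CPM, in adherent cells (left) and tumor spheres (right). Adherent SDs reach 0.743 among GC-rich members and stay at or below 0.230 among the others.

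Some calls also ended when a single library was left out. Such fits have fewer libraries, so a lost call does not show that it rested on the library left out. In adherent cells ABCB10, ABCC5 and ABCF2 lost their calls without shSigma replicate 1 (adjusted p = 0.108, 0.131 and 0.101), without shSigma replicate 2 (0.0861, 0.0932 and 0.0594), without shCtrl replicate 1 (0.0639, 0.0635 and 0.0657) and without shCtrl replicate 2 (0.070, 0.086 and 0.101). ABCG4 lost its adherent call without shSigma replicates 1 and 2 (0.0873 and 0.066) and without shCtrl replicates 1, 2 and 3 (0.0519, 0.0684 and 0.0572). In tumor spheres ABCB6 lost its call without shSigma replicates 1 and 3 (0.124 and 0.136) and shCtrl replicates 1 and 2 (0.0842 and 0.0723), and ABCA10 without shSigma replicates 2 and 3 (0.0901 and 0.165) and shCtrl replicates 2 and 3 (0.109 and 0.0878). In 1 fit of all 12 libraries the tumor sphere calls of ABCA2, ABCB9 and ABCC10 did not pass (adjusted p = 0.12, 0.096 and 0.26), and the GC covariate ended those of ABCB6, ABCB9 and ABCC10 (0.0756, 0.121 and 0.0580). DESeq2 did not call ABCF2 and ABCG4 in adherent cells (0.0672 and 0.122) or ABCA10 in tumor spheres (0.108).

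Whether knockdown acted differently in the cultures was tested by an interaction term in a fit of the 12 libraries, so that a positive value is a higher change in tumor spheres. Of 32 members tested, 4 were higher and 6 lower, beside 12.7% and 15.6% of all genes tested, and 5 passed an absolute log2 difference of 1, beside 8.54%. All 5 were lipid transporters or ABCG2. The differences were -3.85 ± 0.61 for ABCA4 (adjusted p = 0.00034), -2.21 ± 0.29 for ABCA1 (adjusted p = 8.8e-05), -2.14 ± 0.27 for ABCG1 (adjusted p = 5.6e-05), -1.99 ± 0.57 for ABCA8 (adjusted p = 0.018) and -1.33 ± 0.15 for ABCG2 (adjusted p = 2e-05). The differences of ABCC4 (0.45 ± 0.10, adjusted p = 0.0041), ABCC2 (0.45 ± 0.14, adjusted p = 0.023) and ABCE1 (0.53 ± 0.11, adjusted p = 0.0022) were smaller, as were those of ABCA5 (0.42 ± 0.14, adjusted p = 0.041) and ABCG4 (-0.60 ± 0.20, adjusted p = 0.036). That of ABCC3 was 0.27 ± 0.16 (adjusted p = 0.23) and was not called. The size fitted for ABCA4 depends on the prior count, since shSigma tumor spheres held no more than 3 of its counts per library. The ABCA8 call ended without adherent shSigma replicate 3 (-1.69, adjusted p = 0.0878), and that of ABCC2 without adherent shSigma replicate 2, adherent shCtrl replicate 2, tumor sphere shSigma replicate 2 or 3, or tumor sphere shCtrl replicate 3 (0.0510 to 0.0593). That of ABCA5 ended without adherent shSigma replicate 1 or 2, adherent shCtrl replicate 2, tumor sphere shSigma replicate 2 or 3, or tumor sphere shCtrl replicate 1 or 3 (0.0522 to 0.105). The ABCG4 call ended without any library other than adherent shSigma replicate 3, adherent shCtrl replicate 3 and tumor sphere shCtrl replicate 1 (0.0602 to 0.140), and DESeq2 did not make it (0.142).

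Between cultures, the efflux members called were higher in tumor spheres, and the lipid members called were mostly higher in shCtrl and mostly lower in shSigma tumor spheres. These comparisons share their libraries with those of the knockdown. In shCtrl cells 14 of 31 tested members were higher and 4 lower in tumor spheres, beside 27.4% and 26.3% of all genes tested, and 10 passed an absolute log2 fold change of 1, beside 15.8%. In shSigma cells 10 of 31 were higher and 5 lower, beside 21.9% and 25.2%, and 10 passed that fold, beside 9.32%. Of 8 tested efflux members, 5 were higher in shCtrl and 6 in shSigma, and the 3 and 2 others were not called. Of 11 tested lipid members, 7 were higher and 2 lower in shCtrl, and 2 were higher and 4 lower in shSigma.

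ABCA8 had the largest fitted difference among the members in both, 49.3-fold higher in shCtrl tumor spheres (5.62 ± 0.33, adjusted p = 6.9e-06), where the adherent libraries held only 1 to 6 counts, and 12.6-fold higher in shSigma tumor spheres (3.66 ± 0.26, adjusted p = 3.7e-05). ABCG2 was 6.27-fold higher in shCtrl (2.65 ± 0.11, adjusted p = 1.2e-06) and 2.54-fold higher in shSigma tumor spheres (1.35 ± 0.10, adjusted p = 3.4e-05). ABCC4 rose 2.64-fold and 3.66-fold, ABCC3 2.02-fold and 2.47-fold, and ABCC2 1.38-fold and 1.92-fold. ABCA1 was 2.16-fold higher in shCtrl (adjusted p = 0.00092) and 2.10-fold lower in shSigma tumor spheres (adjusted p = 0.006), and ABCG1 was 2.05-fold higher (adjusted p = 0.0019) and 2.11-fold lower (adjusted p = 0.0051), a call that DESeq2 did not make (adjusted p = 0.0841). ABCA4 was at or below the floor of 3 counts in shSigma tumor spheres and was at least 9.84-fold lower there than in adherent shSigma cells. ABCA12, a lipid transporter of skin, was at or below the floor in adherent shCtrl cells and was at least 3.94-fold higher in shCtrl tumor spheres. The shCtrl tumor sphere libraries held only 8, 9 and 9 of its counts, and those of shSigma 0, 1 and 2. ABCA12 was tested in no other comparison.

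**Figure D4:**
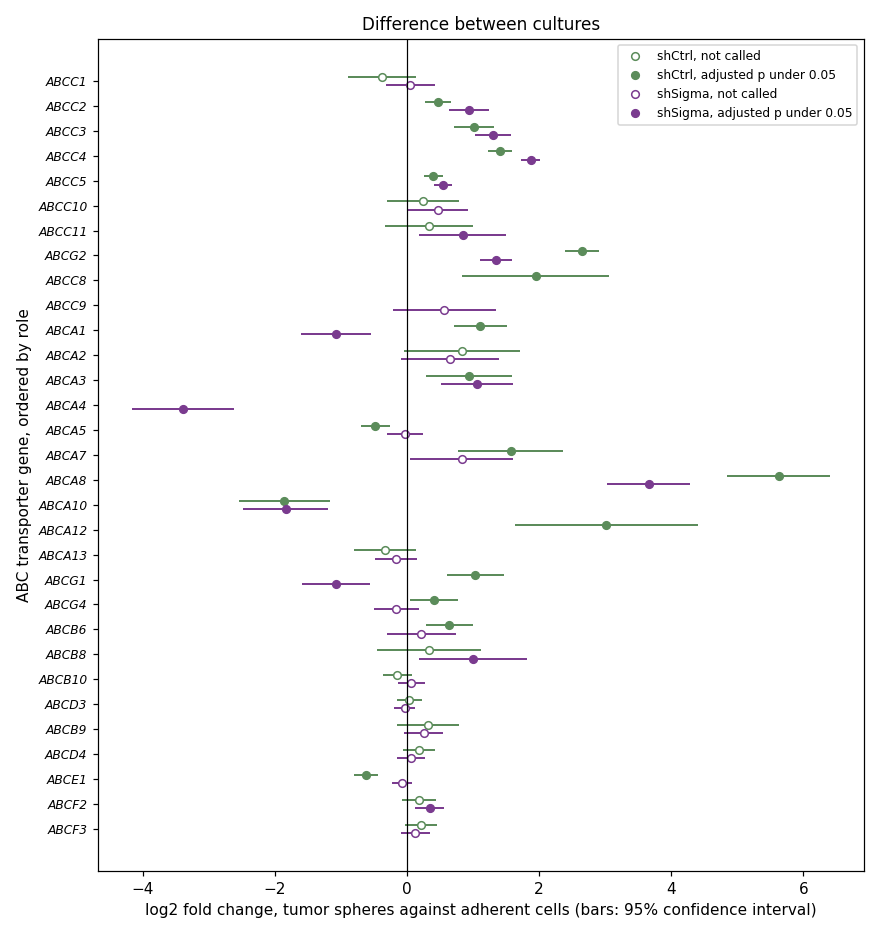
Log2 fold change of tumor spheres against adherent cells for the tested members shown in shCtrl (green) and shSigma cells (purple), with 95% confidence intervals and filled points where the adjusted p was under 0.05. ABCA8 lies farthest to the right, at 5.62 and 3.66, and ABCA1 and ABCG1 lie on opposite sides of 0 in shCtrl and shSigma.

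ABCA3 stood at 26.9, 38.6 and 54.4 CPM in adherent shCtrl and 48.3, 54.9 and 32.1 CPM in adherent shSigma. For tumor spheres the values were 84, 59.4 and 86.8 CPM in shCtrl and 90.8, 92 and 94.9 CPM in shSigma. Tumor sphere and adherent libraries did not overlap, and it was higher in tumor spheres of both (0.94 ± 0.27, adjusted p = 0.023, and 1.05 ± 0.21, adjusted p = 0.011). ABCA7, which takes part in phagocytosis, stood at 14.8, 26.2 and 36.8 CPM in adherent shCtrl and 41.3, 44.8 and 20.9 CPM in adherent shSigma. In tumor spheres it stood at 95.6, 62.4 and 73.8 CPM in shCtrl and 68.1, 63.7 and 56.1 CPM in shSigma. It was higher without overlap in shCtrl tumor spheres (1.57 ± 0.33, adjusted p = 0.0065), while 0.83 ± 0.31 in shSigma was not called. ABCA10 was lower in tumor spheres of both (-1.86 ± 0.29 and -1.83 ± 0.27), and ABCC8 was higher in shCtrl (1.95 ± 0.47, adjusted p = 0.0095). ABCC5 was higher in both (0.40 ± 0.06 and 0.54 ± 0.05), and ABCE1 was lower in shCtrl (-0.62 ± 0.07) and at -0.07 ± 0.06 in shSigma. ABCB6 was higher in shCtrl (0.64 ± 0.15), as was ABCG4 (0.41 ± 0.15), and ABCA5 was lower (-0.48 ± 0.09). ABCB8 (1.00 ± 0.32), ABCC11 (0.84 ± 0.28) and ABCF2 (0.34 ± 0.09) were higher in shSigma.

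The GC slope as a covariate turned the shCtrl difference of ABCA3 to -0.01 and that of ABCA7 to 0.44 (adjusted p = 0.023), and ended the shCtrl calls of ABCC8 (0.74), ABCG1 (0.86) and ABCG4 (0.32) and the shSigma calls of ABCB8 (0.22), ABCF2 (0.26) and ABCC11 (0.83). The shCtrl call of ABCA3 also ended without adherent shCtrl replicate 2 (adjusted p = 0.0726) and without tumor sphere shCtrl replicates 1 and 3 (0.0935 and 0.0897), and that of ABCG4 without any of the 6 libraries in turn (0.0542 to 0.160). The shSigma calls of ABCB8 and ABCC11 ended without adherent shSigma replicate 1 (0.0986 and 0.112) and without tumor sphere shSigma replicates 2 (0.0989 and 0.109) and 3 (0.104 and 0.122). That of ABCB8 also ended without tumor sphere shSigma replicate 1 (0.119), and that of ABCF2 without replicate 3 (0.0668).

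Genes that work with the members were followed as lists, whose counts stand against 22.3% higher and 27.7% lower of all genes tested in adherent cells and 30.2% and 30.9% in tumor spheres. Of 15 tested genes of cholesterol efflux and its LXR receptors, 4 rose and 3 fell in adherent cells and 7 rose and 6 fell in tumor spheres. NCEH1, which hydrolyzes cholesterol esters, fell by 0.86 in adherent cells (adjusted p = 6.5e-05) and rose by 0.80 in tumor spheres (adjusted p = 3.9e-07), and APOE, a lipid-carrying apolipoprotein, fell in both (-1.75 and -1.81). Of 11 tested genes of drug sensing and glutathione, 3 rose and 5 fell in adherent cells and 6 rose and 3 fell in tumor spheres. GCLC, the catalytic subunit of glutamate-cysteine ligase, rose by 0.94 and 1.06, and GCLM, its modifier subunit, fell in both (-1.28 and -0.64).

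Against the same shares, of 12 genes of mitochondrial iron and heme 1 rose and 5 fell in adherent cells and 3 rose and 4 fell in tumor spheres. SLC25A37, the iron importer mitoferrin, rose by 1.68 and 1.48, and ALAS1, the first enzyme of heme synthesis, fell in both (-1.43 and -0.88). Of 10 genes of peroxisomal beta-oxidation, 2 rose and 2 fell in adherent cells and 2 rose and 3 fell in tumor spheres, among them SCP2, a peroxisomal thiolase and sterol carrier, which fell in both (-0.31 and -0.76), and ACBD5, a peroxisomal acyl-CoA binding protein, which stood at -0.01 and rose by 0.63. Of 10 genes of ribosome recycling and the GCN2 pathway, 3 fell and 7 were not called in adherent cells and 4 rose and 5 fell in tumor spheres, among them EIF2S1, the alpha subunit of initiation factor eIF2, which fell in both (-0.69 and -0.81), and DENR, a ribosome recycling factor, which fell in both (-0.39 and -0.39).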

How the data were processed

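RNA of DU145 cells was sequenced in 12 libraries (directional, single-end). Per the labels and the study's methods, the authors aligned reads to GRCh38.p12 with STAR (version 2.6.1c in the submitters' processing notes) and deposited raw counts per gene, without normalization. Not given in the sources used here are the annotation counted, whether counting used strand and what was done with multi-mapping reads. No column of counts was left unused. Symbols and positions come from GENCODE release 44 on GRCh38, which named 26153 of 28747 identifiers.

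Groups and replicate numbers came from the labels. Each pairwise comparison was fitted on its own 6 libraries with edgeR 4.0.16 in R 4.3.3 (TMM factors, filterByExpr at a minimum count of 10, robust quasi-likelihood test, two-sided, prior count 0.125, Benjamini-Hochberg adjustment over all 13622 to 14175 genes tested), and the interaction on all 12. CPM use TMM factors of all 12 libraries, so ratios of CPM differ slightly from fitted folds. The SE is the absolute log2 fold change divided by the square root of F. The floor is 3 counts per library and covers counting error only. The biological coefficient of variation was 14.4% in adherent cells and 6.89% in tumor spheres, so small changes are better resolved in tumor spheres. Members, role groups, partner lists and tests were chosen with earlier results of these data known. Values of all libraries are given for members past both thresholds in a pairwise comparison whose mean reached 1 CPM in some group, and for the preset members ABCC1, ABCD3 and ABCE1. Some genes that the rule would name are not reported here, but the counts of members include them. Each partner list is represented by the genes with the largest statistics. Alternatives were DESeq2 1.42.0, its size factors, upper-quartile factors, other filters and thresholds, a fit of all 12 libraries, the replicate block, each library left out and subtraction of the regional median. The GC slope as a covariate and the removal of 2 adherent libraries were added after seeing the data. The procedure was tested on simulated counts. Figures were drawn with Python 3.11.15 and matplotlib 3.10.9.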

Additional observations from a re-analysis of the deposited data

Results flagged for a closer look

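In 10 members the change after σ1R knockdown differed between tumor spheres and adherent cells by the test of the interaction (edgeR, adjusted over all genes tested). Given as tumor spheres minus adherent cells on the log2 scale, the difference was -3.85 for ABCA4, -2.21 for ABCA1, -2.14 for ABCG1, -1.99 for ABCA8, -1.33 for ABCG2 and -0.60 for ABCG4, and it was 0.53 for ABCE1, 0.45 for ABCC2, 0.45 for ABCC4 and 0.42 for ABCA5. After knockdown, ABCG2 was higher in adherent cells and lower in tumor spheres. The calls of ABCG4, ABCA5, ABCC2 and ABCA8 ended without single libraries, with highest adjusted p-values of 0.140, 0.105, 0.0593 and 0.0878 (ABCG4 without tumor sphere shCtrl replicate 2, ABCA5 without tumor sphere shSigma replicate 2, ABCC2 without adherent shSigma replicate 2, and ABCA8 without adherent shSigma replicate 3).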

How the results depend on the processing

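Counts of members called stayed within 1.5 times the reported ones under every alternative run, except when an absolute log2 change over 1 was asked for too (4 for knockdown in adherent cells, 10 in tumor spheres, 5 for the interaction and 10 between cultures in shCtrl) and at an adjusted p under 0.01 (6 for the interaction). These 2 stricter thresholds were applied to the counts only and not to single calls. Of 77 calls of a member in a comparison examined singly, 52 were made under every other alternative that could be computed. Of the 77, 23 were lost under at least 1, and 4 changed sign under at least 1 (ABCD3 and ABCF2 in adherent cells, ABCF2 in tumor spheres and ABCA3 between cultures in shCtrl). With the replicate block, 12 members were called for knockdown in adherent cells, 26 in tumor spheres and 8 for the interaction. The calls over all genes tested were then 4874 of 13764, 8166 of 13774 and 3428 of 14175. Between cultures 17 members were called in shCtrl and 17 in shSigma, beside 6566 of 13800 and 6599 of 13622 genes. Same-numbered replicates did not deviate together within a culture (r of -0.572, -0.0165 and -0.817 in adherent cells, and 0.0535, 0.00454 and -0.0826 in tumor spheres). Between cultures r ran from -0.427 to 0.379, and only replicate 3 was closest to its own number, in shCtrl and in shSigma. GC slopes enter these correlations, so they cannot decide whether the numbers mark pairs. A change of sign occurred in 77 values, a replicate left out included. In 67 of them the member was called neither as reported nor in the alternative, so their direction is not known, and in 6 it was called in the alternative alone. The cause of these changes was not tested. Depth limits members near 3 counts. A fold was given as a bound where a whole group was at or below that floor in a comparison between cultures (ABCA4 and ABCA12), and fitted values of other low members, such as ABCA8 in adherent cells and the interaction of ABCA4, depend on the prior count.

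With the GC slope as a covariate, log2 values changed sign for knockdown in adherent cells to ABCC10 -0.31, ABCB8 -0.25, ABCA3 -0.29 and ABCA7 -0.15, for knockdown in tumor spheres to ABCG4 0.00584, for the interaction to ABCA2 0.091 and ABCB9 0.0254, between cultures in shCtrl to ABCB10 0.0925, ABCF3 -0.0998, ABCC10 -0.54, ABCA13 0.0743, ABCB8 -0.78, ABCF2 -0.0307, ABCA2 -0.47, ABCB9 -0.35, ABCD4 -0.072, ABCA3 -0.00893 and ABCC11 -0.26, between cultures in shSigma to ABCD3 0.0868, ABCF3 -0.0935, ABCE1 0.042, ABCA2 -0.0697, ABCB9 -0.0136, ABCD4 -0.078 and ABCA5 0.0657. With the regional median subtracted they did so for knockdown in adherent cells to ABCD3 0.063, ABCB8 -0.45, ABCF2 -0.50, ABCA3 -0.18, ABCA7 -0.0376 and ABCG1 -0.12, for knockdown in tumor spheres to ABCC5 0.13, ABCF2 -0.19 and ABCA3 -0.11. ABCE1 for knockdown in tumor spheres changed sign to -0.0125 (upper-quartile factors), -0.000341 (no filter on low counts) and -0.00416 (at least 10 counts in every library). ABCA10 for the interaction changed sign to 0.0482 (DESeq2), 0.0405 (DESeq2 size factors in edgeR), 0.0814 (no filter on low counts) and 0.00243 (replicate block). With 1 library left out in turn, values that changed sign for knockdown in adherent cells ranged from -0.22 to 0.0427 for ABCB6, from -0.12 to 0.24 for ABCC10, from -0.0471 to 0.39 for ABCA3 and from -0.000568 to 0.17 for ABCC1. With 1 library left out in turn, values that changed sign for knockdown in tumor spheres ranged from -0.0303 to 0.0344 for ABCE1 and from -0.14 to 0.0299 for ABCG4. With 1 library left out in turn, values that changed sign for the interaction ranged from -0.11 to 0.0468 for ABCD3, from -0.15 to 0.0288 for ABCF3, from -0.54 to 0.16 for ABCA2, from -0.24 to 0.15 for ABCB9, from -0.18 to 0.0113 for ABCD4, from -0.15 to 0.36 for ABCA3 and from -0.28 to 0.30 for ABCA10. With 1 library left out in turn, values that changed sign between cultures in shCtrl ranged from -0.0699 to 0.0548 for ABCD3 and from -0.012 to 0.41 for ABCC10. With 1 library left out in turn, values that changed sign between cultures in shSigma ranged from -0.073 to 0.0153 for ABCD3, from -0.0651 to 0.37 for ABCB6, from -0.00719 to 0.11 for ABCD4, from -0.0777 to 0.15 for ABCC1 and from -0.12 to 0.0744 for ABCA5.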
